A study of Mus musculus with 11 samples.

Results

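Trp53, the mouse gene for p53, and 9 of its well-known target genes were followed in mouse embryonic stem cells (ESCs) that lack Dicer and in ESCs that lack cMyc. The 10 genes (Trp53, Cdkn1a, Mdm2, Bbc3, Zmat3, Phlda3, Ccng1, Fas, Plk2 and Perp) were chosen by name, and each had exactly 1 coding RefSeq row among 19351 genes in the Dcr table and among 16236 genes in the cMyc table. All cells were of strain 129S4/SvJae and were kept without feeder cells on gelatin. Poly(A)-selected, strand-marked RNA libraries came from 3 separate Dcr knockout lines (Dcr KO lines 1, 3 and 4) and 2 wild-type libraries (Dcr WT libraries 1 and 2), and from 1 cMyc knockout culture (cMyc KO) and 1 culture with floxed, undeleted cMyc alleles (cMyc flox). Each Dcr KO library stands for 1 line, the cMyc pair has 1 library a side, and no label says that the Dcr WT libraries were separate cultures, so p-values measure only the spread between these libraries, which for Dcr WT may be technical. The 4 chromatin libraries of the series were not analysed here.

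p53 is a transcription factor that is held low by the ubiquitin ligase Mdm2 and stabilised when DNA is damaged or ribosome assembly fails. Its targets stop the cell cycle (Cdkn1a), trigger apoptosis (Bbc3, Fas, Perp), restrain growth signals (Phlda3) and switch p53 itself off again (Mdm2, Ccng1). Most regulation of p53 acts on the protein, which RNA libraries do not measure. In mouse ESCs, p53 is abundant, and microRNAs of the miR-290 and miR-302 families, whose maturation needs Dicer, are known to repress Cdkn1a. The microRNA miR-34a is in turn a known product of p53.

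These microRNAs are shown because Cdkn1a is the best known link between Dicer products and the p53 pathway in these cells. The mature sequences are those of RefSeq, and capitals mark the seed, bases 2 to 8. The first 4 have the same seed, AAGUGCU, and miR-34a has another.
mmu-miR-291a-3p: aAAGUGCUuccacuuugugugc
mmu-miR-294-3p: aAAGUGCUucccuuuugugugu
mmu-miR-295-3p: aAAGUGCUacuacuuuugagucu
mmu-miR-302b-3p: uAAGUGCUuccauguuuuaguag
mmu-miR-34a-5p: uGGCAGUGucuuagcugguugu

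The 250 bases before the annotated start of Cdkn1a and of Mdm2 are shown because these neighbours in the pathway differed in opposite directions between Dcr KO and Dcr WT. Sequences and positions are from RefSeq on GRCm38.p6, which is not the build of the deposited tables (mm9). Capitals mark matches to the p53 half-site, the 10-base consensus to which p53 binds in pairs; the consensus reads the same on both strands.
Cdkn1a, upstream start site, chr17:29090729-29090978, plus strand: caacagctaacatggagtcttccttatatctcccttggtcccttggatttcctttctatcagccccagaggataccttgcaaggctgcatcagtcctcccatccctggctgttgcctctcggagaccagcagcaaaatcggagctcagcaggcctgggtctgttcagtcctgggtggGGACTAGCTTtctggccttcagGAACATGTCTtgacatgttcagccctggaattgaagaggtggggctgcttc
Mdm2, chr10:117710759-117711008, minus strand: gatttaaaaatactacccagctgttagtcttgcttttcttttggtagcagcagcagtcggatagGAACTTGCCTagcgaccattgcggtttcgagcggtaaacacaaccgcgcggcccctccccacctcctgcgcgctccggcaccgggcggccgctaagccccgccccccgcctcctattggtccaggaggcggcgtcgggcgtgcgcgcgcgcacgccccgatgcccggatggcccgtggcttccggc

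In the Cdkn1a window the half-sites GGACTAGCTT and GAACATGTCT began 73 and 51 bases before the start, and in the Mdm2 window GAACTTGCCT began 186 bases before it. Only exact matches were marked, and the spacing of pairs was not examined. The 10 bases directly after GAACATGTCT miss the consensus at 1 base and are therefore unmarked. Of the 10 genes, 8 had at least 1 such window in the RefSeq table (Zmat3 and Perp had none), and 4 of those 8 (Trp53, Cdkn1a, Mdm2 and Ccng1) held at least 1 half-site. Counted by window, 4 of the 11 windows of these genes held a half-site, and the downstream Cdkn1a window held none. A half-site was present in 7.13% of all 32851 windows and in 8.20% of all 27025 genes with a window. These 4 genes did not move together: Cdkn1a was higher in Dcr KO, Mdm2 was lower, and Trp53 and Ccng1 did not pass the test. The Myc-type E-box CACGTG, searched on both strands and not overlapping a half-site in these windows, was found for Bbc3 and Fas, against 6.86% of all genes. It was in 2 of the 11 windows, against 6.02% of all windows. A match describes letters in a window, and p53 is known to bind Mdm2 within its first intron, outside this window.

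Values are normalised read counts as deposited, that is, reads of a feature divided by 1 factor per library. They are not divided by gene length, so levels were compared between libraries and not between genes. The Dcr libraries held 101815723 to 278006158 reads and the cMyc libraries 24660365 (cMyc flox) and 31633011 (cMyc KO), and ribosomal RNA took 29.96% of reads in cMyc KO and 28.14% in cMyc flox. As a check of the labels, Dicer1 stood at 8696 ± 1033 in Dcr KO (SD, n = 3) and 19462 ± 947 in Dcr WT (SD, n = 2), and Myc had 12 reads in cMyc KO against 446 in cMyc flox. The sources used here do not give the deleted part of either gene. The 10 ESC markers (Pou5f1, Sox2, Nanog, Zfp42, Esrrb, Klf4, Dppa5a, Tdgf1, Utf1 and Fgf4) were present in every library, with summed values of 1052500 to 1220150 in Dcr KO and 1004200 to 1172450 in Dcr WT. Of these, 1 (Fgf4) was called higher and 1 (Tdgf1) lower in Dcr KO, and 8 were not called (limma adjusted p under 0.05). Of 10 fibroblast markers, 2 (Vim and Dcn) were called higher and 7 lower in Dcr KO. Of all coding RefSeq features, 20.9% were called higher and 22.9% lower. The sum of the 10 fibroblast markers was 119639 to 143152 in Dcr KO and 69320 to 75086 in Dcr WT, most of it Vim in Dcr KO. Without Vim, the sum of the other 9 was lower in Dcr KO, at 2494 to 6519, against 30365 to 42465 in Dcr WT. Lum was at 0 in some libraries. In bulk RNA, fewer cells of a type and less RNA per cell cannot be told apart, and the part of other cell types in the results below was not tested.

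Loss of Dicer went with changes of the p53 targets in both directions and with no change of Trp53 itself that passed the test. Of the 10 genes, 2 (Cdkn1a and Perp) were higher and 6 (Zmat3, Bbc3, Plk2, Phlda3, Mdm2 and Fas) were lower in Dcr KO at a Benjamini-Hochberg adjusted p under 0.05 over all 42358 features (limma on log2(value + 1)). Trp53 and Ccng1 did not pass. The background is high in this comparison: 20.9% of all 16322 coding RefSeq features tested were called higher and 22.9% lower, 43.8% in all. Over all features of the table these shares were 16.9% and 14.8%. The median log2 fold change was −0.61 over the 10 genes, and −0.06 over all coding RefSeq features. In 8 of the 10 genes the Dcr KO and Dcr WT libraries did not overlap, against 66.9% of all coding RefSeq features. The genes were chosen with earlier results of these data known, so these counts describe them and test nothing about the group.

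**Figure D1:**
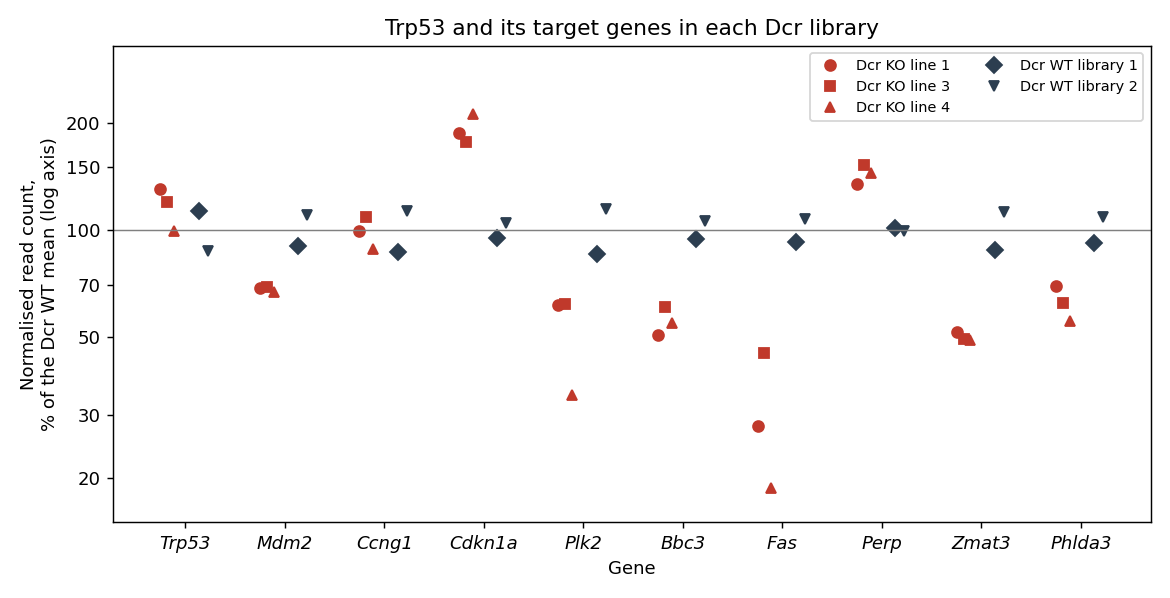
Normalised read count of each gene in each Dcr library, as a percentage of the mean of the 2 Dcr WT libraries (log axis), with Dcr KO lines in red and Dcr WT libraries in dark blue. Cdkn1a lay at 177 to 212% and Perp at 135 to 152% in the Dcr KO lines, the 6 genes called lower lay at 18.7 to 69.6%, and Trp53 and Ccng1 overlapped the Dcr WT libraries.

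Trp53 had 120274, 110602 and 91124 normalised reads in Dcr KO lines 1, 3 and 4, against 103739 and 80320 in Dcr WT libraries 1 and 2. The groups overlapped, since line 4 lay below Dcr WT library 1. The means were 107334 ± 14848 in Dcr KO (SD, n = 3) and 92030 ± 16560 in Dcr WT (SD, n = 2), a log2 fold change of 0.22 ± 0.17 (SE) and an adjusted p of 0.347 in limma. Without any 1 library it ranged from 0.04 to 0.41 and did not pass. RefSeq lists a pseudogene of Trp53, and the sources used here do not say how reads matching both were shared.

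Among the genes that feed back on p53, Mdm2 was lower and Ccng1 did not pass the test. Mdm2, whose product marks p53 for degradation, had 15802, 15895 and 15411 normalised reads in Dcr KO lines 1, 3 and 4, against 20763 and 25287 in Dcr WT libraries 1 and 2. The 3 lines were close to each other and all lay below both wild-type libraries, with a log2 fold change of −0.55 ± 0.14 (SE) and an adjusted p of 0.0171 in limma. This call was lost without any 1 of the lines (limma adjusted p 0.0568 to 0.0791). The log2 fold change then stayed at −0.53 to −0.55, and it was −0.40 without Dcr WT library 2. Ccng1, which encodes cyclin G1, a partner of the phosphatase that activates Mdm2, had 43622, 47955 and 39009 in the Dcr KO lines, against 38255 and 49891 in Dcr WT libraries 1 and 2. All 3 lines lay between the wild-type libraries. The log2 fold change was −0.01 ± 0.16 (SE; limma adjusted p = 0.968), and its sign depended on the scaling and on the libraries kept.

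The cell-cycle genes moved apart. Cdkn1a, which encodes the cyclin-dependent kinase inhibitor p21, had 23950, 22642 and 27038 normalised reads in Dcr KO lines 1, 3 and 4, against 12147 and 13391 in Dcr WT libraries 1 and 2. Every line lay above both wild-type libraries, and line 4 was the highest. The Dcr KO mean of 24543 ± 2257 (SD, n = 3) was 1.92 times the Dcr WT mean of 12769 ± 880 (SD, n = 2), with a log2 fold change of 0.94 ± 0.14 (SE) and an adjusted p of 0.0013 in limma. Plk2, a polo-like kinase gene induced by p53, had 6228, 6271 and 3463 in Dcr KO lines 1, 3 and 4, against 8636 and 11588 in Dcr WT libraries 1 and 2. All lines lay below both wild-type libraries, and the highest line was 1.81 times line 4. The log2 fold change was −0.96 ± 0.26 (SE; limma adjusted p = 0.021), and the call was lost without line 1 (adjusted p = 0.0556).

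The apoptosis genes were also split. Bbc3, which encodes the pro-apoptotic protein Puma, had 4909, 5901 and 5325 normalised reads in Dcr KO lines 1, 3 and 4, against 9190 and 10287 in Dcr WT libraries 1 and 2. The lines lay at 50.4, 60.6 and 54.7% of the Dcr WT mean, with no overlap. Its log2 fold change was −0.86 ± 0.15 (SE; limma adjusted p = 0.00263). Perp, which encodes a membrane protein of desmosomes that p53 induces, had 11262, 12689 and 12057 in the Dcr KO lines, against 8423 and 8260 in Dcr WT libraries 1 and 2. Perp was the second gene of the 10 to be higher, by a log2 fold change of 0.52 ± 0.14 (SE) and an adjusted p of 0.017 in limma, and lost its call without line 3 (adjusted p = 0.0973) or line 4 (0.0506). Fas, the death receptor gene, was barely detected, with 22, 41 and 17 recovered reads in Dcr KO lines 1, 3 and 4, against 32 and 82 in Dcr WT libraries 1 and 2. As normalised reads these are 19.5, 31.3 and 13.0 in the lines, and 64.4 and 74.9 in the wild-type libraries, with no overlap. The log2 fold change of Fas, −1.74 ± 0.50 (SE; limma adjusted p = 0.0256), had the widest error of the 10 genes and lost its call without line 1 (adjusted p = 0.0799), line 4 (0.0729) or Dcr WT library 2 (0.0586).

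Zmat3 and Phlda3, both strongly p53-dependent in mouse cells, were lower. Zmat3, which encodes an RNA-binding zinc finger protein that acts in tumour suppression, had 28480, 27223 and 27053 normalised reads in Dcr KO lines 1, 3 and 4, against 48395 and 62207 in Dcr WT libraries 1 and 2. The lines were within 1.05 times of each other and lay at 48.9 to 51.5% of the Dcr WT mean. Its log2 fold change was −0.99 ± 0.15 (SE; limma adjusted p = 0.00125). A lncRNA gene, 4930429B21Rik, overlaps Zmat3 in the RefSeq annotation, and the sources used here do not say whether reads were counted by strand. Phlda3, whose product competes with Akt for membrane lipids, had 8792, 7855 and 6992 in the lines, against 11570 and 13690 in Dcr WT libraries 1 and 2. All lines again lay below both wild-type libraries (log2 fold change −0.68 ± 0.16, SE; limma adjusted p = 0.01), and without line 3 the adjusted p was 0.0532.

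**Figure D2:**
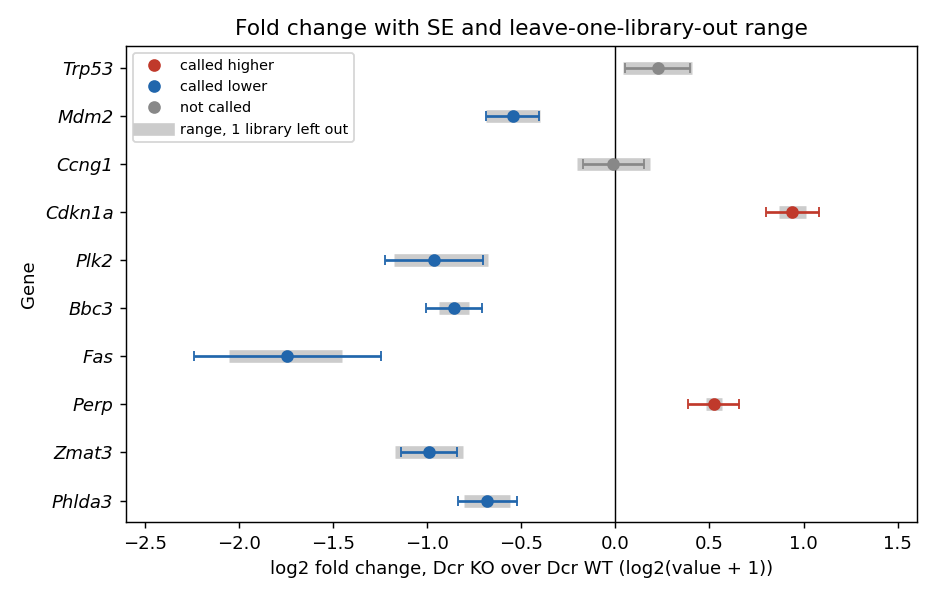
Log2 fold change of each gene, Dcr KO over Dcr WT, with its SE (error bars, limma) and the range when 1 library is left out (grey bars); red points were called higher, blue lower, and grey points were not called. Cdkn1a at 0.94 and Perp at 0.52 lie right of 0, and the other 6 called genes lie between −0.55 (Mdm2) and −1.74 (Fas).

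Cdkn1a, Zmat3 and Bbc3 were the genes of the 10 that kept their call whichever library was left out; the other 5 calls (Perp, Mdm2, Phlda3, Fas and Plk2) were each lost without at least 1 library. edgeR and DESeq2 on the recovered reads gave the same counts, 2 higher and 6 lower. With line 1 left out 3 genes were called lower, and with line 3 or line 4 left out 1 gene, Cdkn1a, was called higher. Without a mean-variance trend, limma called 1 higher and 2 lower, beside a fall of all calls to 4243 higher and 3832 lower, against 7171 and 6273 with the trend.

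The lines differed among themselves for some genes. Across the 3 Dcr KO lines the highest value was 1.03 times the lowest for Mdm2 and 1.05 times for Zmat3, but 1.81 times for Plk2 and 2.41 times for Fas. Line 4 was the lowest of the lines for 7 of the 10 genes, and it was the lowest for 52.1% of all coding RefSeq features. Line 4 was the highest line for Cdkn1a alone. Between the wild-type libraries, library 2 was above library 1 for 8 of the 10 genes (all but Trp53 and Perp), against 45.1% of all coding RefSeq features. The difference between wild-type libraries was largest for Plk2, at 1.34 times. Library 1 carries a column suffix that sets it apart and that no label explains; with it left out, 2 genes were higher and 6 lower, as with all libraries.

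Genes with the pattern most like that of Trp53 and of Cdkn1a were sought by the root-mean-square difference of centred log2(value + 1) over the 5 Dcr libraries, among 12969 other coding genes with a mean of at least 100. The nearest to Trp53 were Ltv1, Gdi2 and Hdlbp (differences of 0.02, 0.03 and 0.03). The nearest to Cdkn1a were Atp1b1, Card10 and Gsta3 (0.04, 0.05 and 0.06). Fas had a lower mean and was not compared. Of the other 8 targets, Perp was closest to Trp53 (0.24, rank 3693) and also to Cdkn1a (0.24, rank 1276). Of these 8, Plk2 was farthest from both (0.66 and 1.01). With 5 libraries, such a likeness is a description only.

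A wider list of 40 other p53 target genes, of which 36 had a row and were tested, lay nearer to 0 at its median. In Dcr KO, 3 were higher, 8 lower and 25 were not called, with a median log2 fold change of −0.13. The lower calls are near the coding background of 22.9% and the higher calls are under that of 20.9%. Dropping line 1 or line 3 left 1 higher and 5 lower, and dropping line 4 left 4 lower. Over all coding RefSeq features, dropping a line left 2100 to 2654 higher and 2417 to 2801 lower, against 3415 and 3737. Upper quartile scaling gave 9 higher and 5 lower, beside 3952 higher and 3359 lower over all coding RefSeq features. Pidd1, Sfn, Ptprv and Sco2 matched no row. The 3 that were higher were Gadd45a, Polk and Epha2. Gadd45a, a stress gene that slows the cell cycle at G2, had 18798, 22489 and 21056 normalised reads in Dcr KO lines 1, 3 and 4, against 9825 and 11570 in Dcr WT libraries 1 and 2 (log2 fold change 0.96 ± 0.15, SE; limma adjusted p = 0.00145). Its fold change was close to that of Cdkn1a. Polk, a translesion DNA polymerase gene (0.81, adjusted p = 0.0268), was not called when a Dcr KO line or Dcr WT library 1 was dropped (0.38 and adjusted p = 0.111 without that library). Epha2, an ephrin receptor gene (0.45, adjusted p = 0.044), was not called when a Dcr KO line or Dcr WT library 2 was dropped (adjusted p at most 0.191).

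The other targets with the largest decreases were Ddit4, Rprm, Tap1 and Tnfrsf23. Ddit4, which encodes an inhibitor of the growth kinase complex mTORC1, had 3544, 3336 and 3444 normalised reads in Dcr KO lines 1, 3 and 4, against 9057 and 20702 in Dcr WT libraries 1 and 2. The lines were tightly grouped and the wild-type libraries were far apart. The log2 fold change was −1.99 ± 0.28 (SE; limma adjusted p = 0.001), and dropping Dcr WT library 1 moved it to −2.59, while dropping library 2 moved it to −1.40. Rprm, the cell-cycle arrest gene reprimo, averaged 150.3 ± 12.8 in Dcr KO (SD, n = 3) and 465.1 ± 140 in Dcr WT (SD, n = 2), a log2 fold change of −1.59. Tap1, a peptide transporter gene of antigen presentation, was at −0.97 (adjusted p = 0.0109, and 0.056 without line 4), and Tnfrsf23, a decoy receptor gene, was at −0.83 (adjusted p = 0.00748). The pro-apoptotic genes Bax (−0.37, adjusted p = 0.130) and Pmaip1 (0.47, adjusted p = 0.0746) did not pass. These 2 were named after their values were seen, as classic partners of Bbc3.

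Of 27 regulators and family members of p53, 5 were higher, 5 lower and 17 were not called in Dcr KO, with a median log2 fold change of 0.23. Neither count is above the coding background of 20.9% higher and 22.9% lower. Both relatives of p53 changed, in opposite directions. Trp63, a p53 family gene of epithelia and the germline, was low throughout, with 64.8, 126.8 and 96.4 normalised reads in Dcr KO lines 1, 3 and 4, against 18.1 and 15.5 in Dcr WT libraries 1 and 2 (log2 fold change 2.40 ± 0.43, SE; limma adjusted p = 0.00325). Trp73, the third family gene, had 1967, 1865 and 1069 in the lines, against 4454 and 4272 in the wild-type libraries. It was lower, by a log2 fold change of −1.47 ± 0.25 (SE) and an adjusted p of 0.00255 in limma.

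Among the regulators, Cdkn2a, whose locus encodes the Mdm2 inhibitor Arf and the kinase inhibitor p16, had 3117, 3619 and 4334 normalised reads in Dcr KO lines 1, 3 and 4, against 907 and 1436 in Dcr WT libraries 1 and 2. Its log2 fold change was 1.68 ± 0.23 (SE; limma adjusted p = 0.000731), and the row does not separate the products of the locus. Hipk2, a kinase gene whose product phosphorylates p53, was higher by 1.25 ± 0.18 (SE; limma adjusted p = 0.00106), and Crebbp, which encodes a p53 acetyltransferase, by 0.78 ± 0.15 (SE; limma adjusted p = 0.00494). Rpl11, a ribosomal protein gene whose product can bind Mdm2, was at 1028 ± 69 in Dcr KO (SD, n = 3) and 2612 ± 340 in Dcr WT (SD, n = 2), a log2 fold change of −1.34. Ribosomal protein genes have many near-identical processed copies, so this value is uncertain. Also lower were Ppp1r13l, which encodes the p53 inhibitor iASPP (−0.66, limma adjusted p = 0.00745), and Rchy1, a ubiquitin ligase gene (−0.63, limma adjusted p = 0.00969, and 0.0513 without line 3). Mdm4, the second main inhibitor of p53 beside Mdm2, did not pass (0.37, limma adjusted p = 0.193), and was named after its value was seen. Without line 3, 3 regulators were called lower in place of 5, beside a fall from 3737 to 2417 in all coding RefSeq features called lower.

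**Figure D3:**
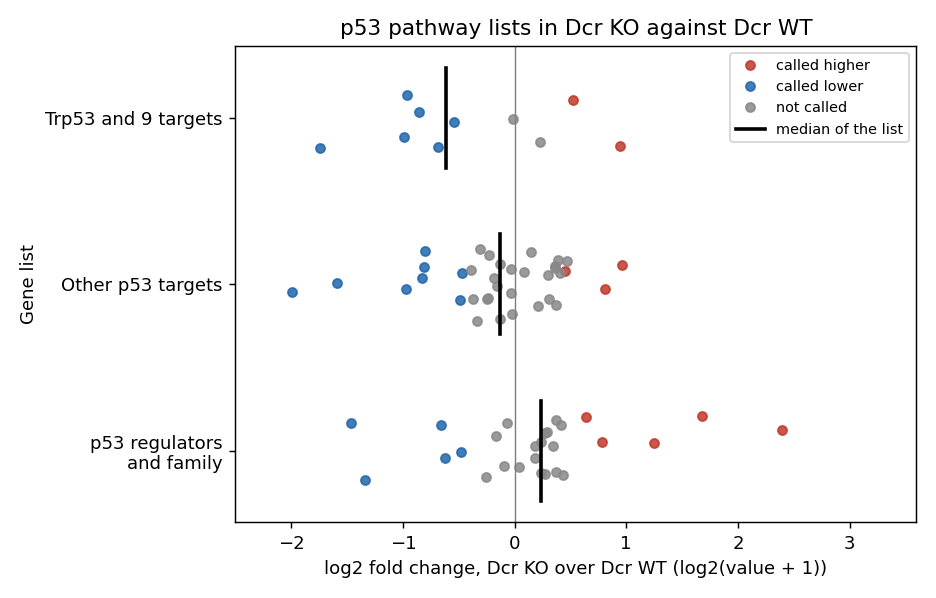
Log2 fold change, Dcr KO over Dcr WT, of every tested gene in 3 lists, with red for called higher, blue for called lower and grey for not called; black lines are list medians. Trp53 and its 9 targets have a median of −0.61, the 36 other targets −0.13 and the 27 regulators and family members 0.23.

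The cMyc libraries allow a second description of the same 10 genes, with 1 library a side and therefore no test. Myc was also lower in the Dcr KO lines, at 1253, 1054 and 443 normalised reads in lines 1, 3 and 4. Dcr WT libraries 1 and 2 had 10984 and 7478 (log2 fold change −3.44 ± 0.39, SE, limma adjusted p = 0.000289). The part of Myc in the Dcr KO results was not tested. Intervals cover counting error only and are exact 95% intervals from the recovered reads. Trp53 had 11932 normalised reads in cMyc KO against 8689 in cMyc flox, a ratio of 1.37 (interval 1.34 to 1.42). It was the only one of the 10 with a ratio above 1, also under the 3 other scalings tried. Of the 10 genes 9 were lower in cMyc KO, against 36.3% of all 14626 coding RefSeq features compared. The median log2 ratio was −0.10 over the 10 genes and 0.12 over all coding RefSeq features.

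Mdm2 and Ccng1, the feedback genes, had the lowest ratios after Fas, which rests on few reads. Mdm2 was at 1746 in cMyc KO against 2429 in cMyc flox, a ratio of 0.719 (0.676 to 0.764). Ccng1 was at 3781 in cMyc KO against 5172 in cMyc flox, a ratio of 0.731 (0.701 to 0.762). Bbc3 had a ratio of 0.811 (0.721 to 0.913) and Zmat3 of 0.943 (0.903 to 0.985). For the other genes the interval held 1. Cdkn1a, higher in Dcr KO, was at 924 in cMyc KO against 998 in cMyc flox (0.926, interval 0.847 to 1.01), and Perp was at 688 in cMyc KO against 725 in cMyc flox (0.949, interval 0.854 to 1.05). Plk2 (0.976) and Phlda3 (0.986) were nearest to 1. Fas had 4 reads in cMyc KO and 11 in cMyc flox, a ratio of 0.312 (0.073 to 1.06).

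Past a 1.5-fold difference on log2(value + 1), 0 of the 10 genes were higher in cMyc KO and 1, Fas, was lower, on few reads. The background past that fold was 9.01% of coding RefSeq features higher and 5.54% lower, 14.5% in all, and over all features 10.9% higher and 12.1% lower. Of the 36 other targets, 1 was higher and 4 were lower past that fold. Their median log2 ratio was 0.03, and the interval lay above 1 for 10 of them, below 1 for 13 and held 1 for 13. The one that was higher past 1.5-fold, the growth factor gene Gdf15, had 52 reads in cMyc KO and 27 in cMyc flox. The lowest were Pmaip1, which encodes the pro-apoptotic protein Noxa (ratio 0.550), Trp53inp1, a stress-induced p53 cofactor gene (0.557), and Polk (0.595). Of 26 regulators compared, 0 were higher and 3 were lower, namely Mdm4 (0.519) and the DNA damage kinase genes Chek1 (0.621) and Atr (0.630). Trp63 had 1 read in cMyc KO and 0 in cMyc flox and was not compared. Of the fibroblast markers 6 of 9 compared were higher past 1.5-fold in cMyc KO, with sums over the 10 markers of 17177 in cMyc KO and 11704 in cMyc flox. The 10 ESC markers also had a higher sum in cMyc KO, at 64661 against 53697 in cMyc flox, and 0 of them were past 1.5-fold.

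**Figure D4:**
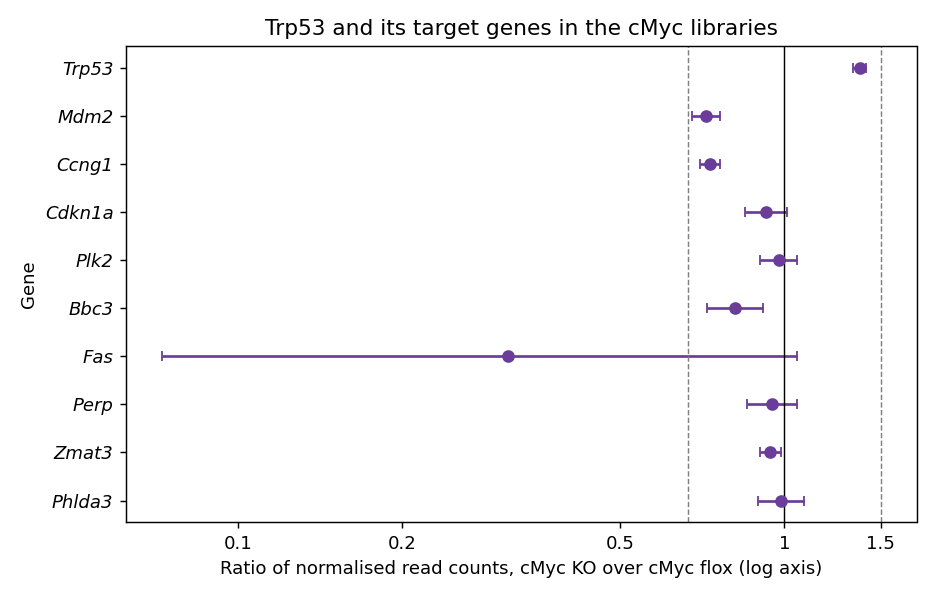
Ratio of normalised read counts, cMyc KO over cMyc flox (log axis), for each gene, with the exact 95% interval for counting error (bars); dashed lines mark 1.5-fold in either direction. Trp53 lies at 1.37, Mdm2 at 0.719 and Ccng1 at 0.731, and the wide bar of Fas rests on 4 reads in cMyc KO and 11 in cMyc flox.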

How the data were processed

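Read counts per feature divided by 1 factor per library were deposited by the authors as a normalised signal for the 5 Dcr and 2 cMyc RNA libraries. The submitters' processing notes name TopHat, Bowtie, DESeq and build mm9, and the sources used here do not say how reads were counted, filtered or assigned by strand. Whole reads were recovered from 100% of non-zero values in the Dcr libraries and 99.997% in the cMyc libraries (within 0.01 read, plus the 2-decimal rounding of the cMyc table); every value column matched a sample. RefSeq accessions were given symbols from GRCm38.p6, which matched 19362 of 19683 coding rows for Dcr and 16246 of 16484 for cMyc.

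Because values were normalised, limma 3.58.1 (R 4.3.3, trend, two-sided, Benjamini-Hochberg) was run on log2(value + 1) for features reaching 1 in 2 or more libraries; this scale understates changes of low genes. edgeR 4.0.16 and DESeq2 1.42.0 on the recovered reads, other scalings, pseudocounts and filters, and leaving out each library were the alternatives. The scripts were checked on simulated data. The cMyc pair was compared by ratio. Members and lists were chosen with earlier results of these data known. All 10 genes are named, with up to 4 called genes a direction from each other list (3 past 1.5-fold for cMyc), besides those said to be chosen after their values were seen. Depth was 101815723 to 278006158 reads per Dcr library; Fas rests on 17 to 82 reads a library and Trp63 on 9 to 166.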

Additional observations from a re-analysis of the deposited data

How the results depend on the processing

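In total, 16 alternatives were run for the Dcr comparison and 4 for the cMyc comparison. Over the 25 genes followed, 361 of the single-gene results in Dcr KO stayed on their side of the threshold with the same sign, 35 lost their call and 4 changed sign, all of the last for Ccng1, which is not called: 0.0693 with upper quartile scaling, 0.0272 with median-of-ratios scaling over coding features, and −0.20 to 0.18 with 1 library left out (above 0 without Dcr KO line 4 or Dcr WT library 2). The 8 called genes of the 10 kept their direction in all 16. Without the trend in limma, calls were 1 higher and 2 lower for the 10 genes, 1 and 2 for the other targets, and 3 and 2 for the regulators. Other targets called higher numbered 9 with upper quartile scaling, 8 with median-of-ratios scaling and 7 with coding RefSeq features alone, against 3. Over all coding RefSeq features, 3952, 3795 and 3760 were called higher in the same settings, against 3415. Other targets called lower numbered 5 with upper quartile scaling and 5 with a pseudocount of 0.5, against 8. Coding RefSeq features called lower numbered 3359 and 3659 there, against 3737. With 1 library left out, the counts for the 10 genes ranged from 1 to 2 higher and 3 to 6 lower, for the other targets from 1 to 4 higher and 4 to 8 lower, and for the regulators from 4 to 11 higher and 3 to 6 lower. In the cMyc pair, total count scaling moved the median log2 ratio of all features to −0.07, against 0.07, and put 3 of the 10 genes, with Mdm2 and Ccng1 beside Fas, past 1.5-fold lower. The cause of these shifts was not tested. No paired analysis was possible because Dcr KO and Dcr WT share only replicate number 1. Few reads limit the precision for Fas and Trp63 among others, and the number of libraries limits every test.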
